A study of Mus musculus with 34 samples.

Results

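The effect of a high fat diet (HFD) on RNA of the stromal vascular fraction, SVF, of visceral fat was compared between 20 and 34 weeks of feeding, and the genes were sorted by whether the effect was kept, lost or gained. The samples were 24 of the 34 RNA-seq libraries of the series, all from male C57BL/6J mice with no transgene, fed from 6 weeks of age either the HFD (D12492, 60% of kcal from fat) or a control diet (CHOW, D12450B or D12450K, with no record of which library had which), fasted for 6 h and killed after 20 or 34 weeks. At 20 weeks the 2 diets had 5 (CHOW) and 6 (HFD) libraries each, and at 34 weeks 7 (CHOW) and 6 (HFD). The HFD effect is the mean of log2(TPM + 1) on HFD minus that on CHOW, where TPM is a length-corrected share of a library, and it was taken within the table of each time because the tables were made separately. The effect at 20 weeks was then subtracted from the effect at 34 weeks, so that levels of one table were never set against levels of the other. Weeks on the diet, age and the table cannot be told apart in this design. Of 32098 genes in each table, 13944 passed the filter on low values in both and were tested.

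A gene was called at a Benjamini-Hochberg adjusted p under 0.05 over these 13944 genes in limma. An effect was kept when the gene was called at both times in the same direction. It was lost when the gene was called at 20 weeks and the difference was called with the opposite sign, and it was gained when the gene was called at 34 weeks and the difference was called with the same sign. The classes rest on these calls, so the values of their members are given as a description of what the rule chose.

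The SVF is what sinks in a centrifuge once fat has been digested with collagenase, while mature adipocytes float. It holds macrophages and other immune cells together with fibroblast-like progenitors, endothelial cells and mesothelial cells from the surface of the depot. In obese visceral fat, macrophages gather around dying adipocytes, take up lipid, expand their lysosomes and can fuse into multinucleated cells, and mast cells accumulate. Lean visceral fat is known for eosinophils, regulatory T cells, type 2 cytokines and resident perivascular macrophages. In RNA from bulk tissue, fewer cells of a type and less RNA per cell cannot be told apart.

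The libraries held between 13200 and 17213 genes at 1 TPM or more. The summed level of 14 macrophage markers lay between 5829 and 23629 TPM in all 24 libraries, and none of these markers was at 0 throughout. RNA of other origin differed between libraries of the same group. The erythroid list (10 genes) summed to 27367 to 130152 TPM on CHOW and 12641 to 30512 TPM on HFD at 20 weeks. At 34 weeks its sums were 7353 to 34092 TPM on CHOW and 7117 to 36482 TPM on HFD. Since TPM is a share, a larger erythroid sum leaves less TPM for all other genes of a library. A fit without the genes of this and 4 other lists is given below. The adipocyte marker list (16 genes) summed to 16831, 66381 and 20720 TPM in CHOW 34 week replicates 5, 6 and 7, against 309 to 2440 TPM in the other 34 week CHOW libraries and 312 to 858 TPM in the 34 week HFD libraries. The germ cell list (14 genes) reached 2677, 3606 and 14726 TPM in HFD 20 week replicates 3, 4 and 5 and 5914 and 6364 TPM in HFD 34 week replicates 1 and 2, and stayed at or below 461 TPM elsewhere. Counts of called differences, of genes called at each time and of kept, lost and gained genes were therefore also taken without these adipocyte-rich or germ-cell-rich libraries. They are given below where they differ clearly from the main counts. For several gene lists, among them collagen, B cell and resident perivascular macrophage genes, the counts below are given with all libraries only. Over 15 alternative settings, both fits without these libraries among them, the median difference of these 3 lists kept its sign. It ranged from -0.891 to -0.531 for collagens, 0.303 to 1.103 for B cell genes and 0.671 to 1.131 for resident perivascular macrophage genes. The direction at 34 weeks of genes called at 20 weeks was counted with all libraries only.

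**Figure D1:**
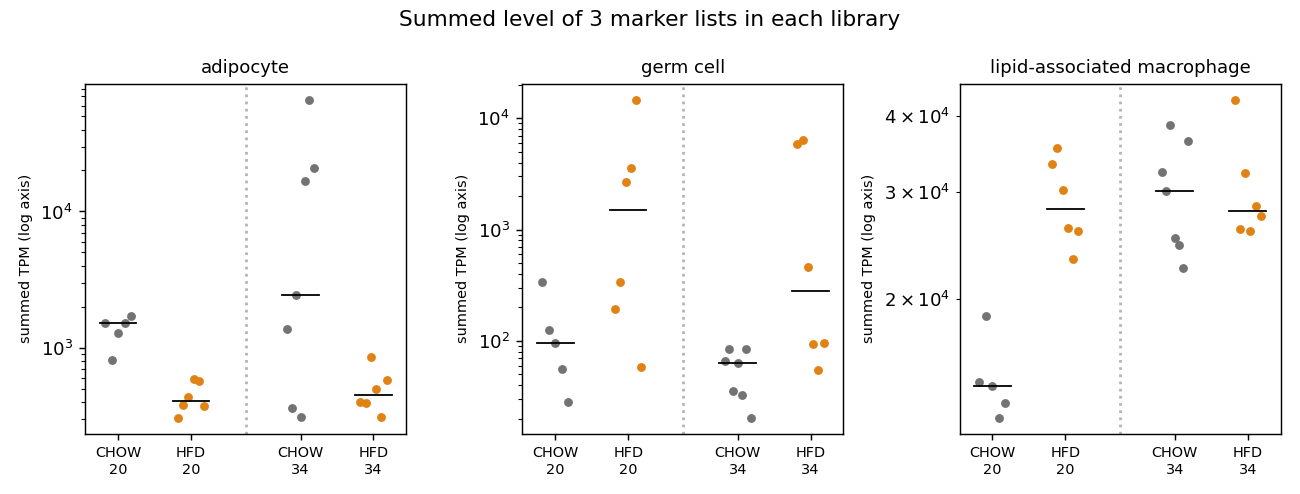
Summed TPM (log axis) of the adipocyte, germ cell and lipid-associated macrophage marker lists in each library, by diet and weeks on it, with a bar at the median. The adipocyte sum stands apart in 3 CHOW libraries of 34 weeks, and the lipid-associated macrophage sums of CHOW and HFD do not overlap at 20 weeks and do at 34 weeks. The lipid-associated macrophage list includes genes that adipocytes also express.

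The HFD effect was called for many genes at 20 weeks and for few at 34 weeks. At 20 weeks 2142 of 13944 genes were called, 1362 higher on HFD (9.77%) and 780 lower (5.59%), and quantile normalization turned this split to 1308 higher and 1774 lower. Without the 5 germ-cell-rich HFD libraries 990 genes were called at 20 weeks, and 127 were called when each library's mean level of the adipocyte list entered the fit as a covariate (the adipocyte score below). The adipocyte sum at 20 weeks was 811 to 1708 TPM on CHOW and 305 to 587 TPM on HFD, with no overlap. The covariate is thus tied to diet there, and counts with it cannot tell adipocyte RNA from diet. At 34 weeks 34 genes were called, all higher on HFD (0.244%), although 1354 were higher (9.71%) and 489 lower (3.51%) at an unadjusted p under 0.05. Leaving out 1 library moved the 34 to between 0 (without CHOW 34 week replicate 7, or HFD 34 week replicate 2 or 4) and 109 (without CHOW 34 week replicate 4). The difference of the effects was called for 83 genes (0.595%), 41 with a positive and 42 with a negative difference. This split was 78 and 43 on TPM recomputed without the genes of 5 marker lists for RNA of other origin. It was 19 and 39 with a pseudocount of 0.1 TPM, and 936 and 1518 under sample quality weights. Without the adipocyte-rich CHOW libraries it was 89 and 273, with the adipocyte score 75 and 166, and without the germ-cell-rich HFD libraries 4 and 0. At an unadjusted p under 0.05 there were 2410 genes (17.3%). Of all genes tested 51.4% had a positive difference, and such shares over all genes are the background for the list counts below. With 1 library left out the count of called differences lay between 28 (without CHOW 20 week replicate 4) and 383 (without CHOW 20 week replicate 2). Among the genes called at 20 weeks 30 were kept and 71 lost. The other 2041 were called at 20 weeks with neither a call at 34 weeks nor a called difference in the opposite direction, so neither word applies to them. No gene met the definition of gained, while 2 did under median-ratio scaling, 4 with the 8 week libraries in the fit, 58 under sample quality weights and up to 7 with 1 library left out.

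The genes called at 20 weeks leaned the same way at 34 weeks, in mice that had no part in choosing them. Of the 1362 genes higher on HFD at 20 weeks, 1089 (80.0%) had a positive effect at 34 weeks, against 64.6% of all genes tested. At an unadjusted p under 0.05, 400 of them (29.4%) were higher at 34 weeks, against the 9.71% of all genes. Their median effect was 0.84 at 20 weeks and 0.29 at 34 weeks on the log2 scale. Of the 780 genes lower on HFD at 20 weeks, 514 (65.9%) had a negative effect at 34 weeks, against 35.4% of all genes, and 138 (17.7%) were lower at an unadjusted p under 0.05, against 3.51%. Their median effect was -0.97 at 20 weeks and -0.14 at 34 weeks. The same pattern held for single libraries on the side that rose and not on the side that fell. All HFD libraries of 34 weeks lay above all CHOW libraries for 68 of the 1362 genes (4.99%, against 0.739% of all genes), and all lay below for 2 of the 780 (0.256%, against 0.201%).

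**Figure D2:**
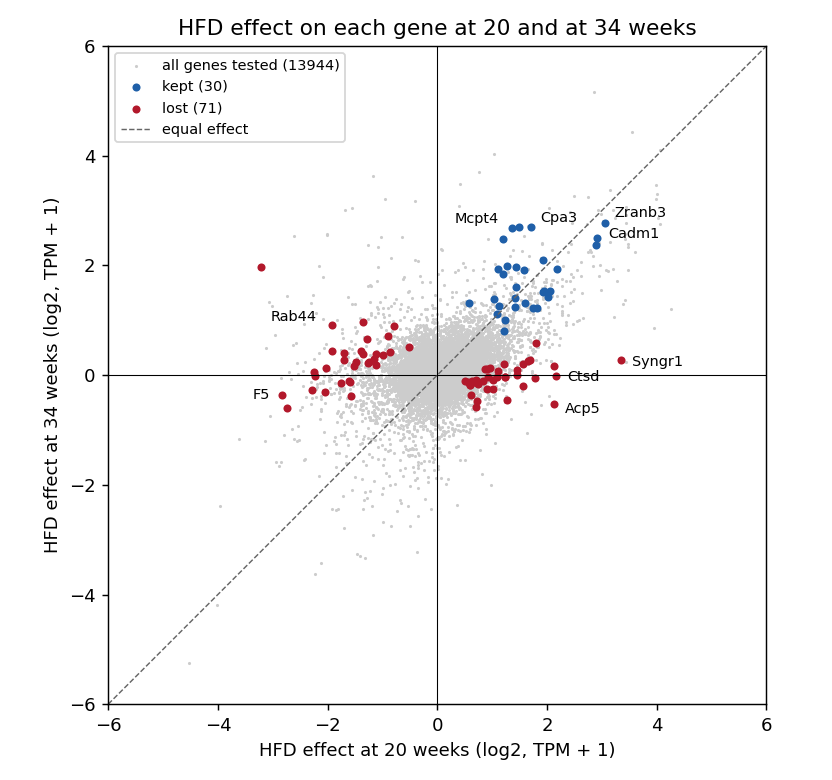
HFD effect on log2(TPM + 1) at 20 weeks (x axis) and 34 weeks (y axis) for each of the 13944 genes tested, with the 30 kept genes in blue and the 71 lost genes in red. The kept genes all lie in the upper right quadrant around the line of equal effect, and the lost genes lie on both sides of 0 on the x axis and, apart from Igkv4-57-1 at 1.98, within 1 of 0 on the y axis.

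The 30 kept genes were all higher on HFD at both times, and mast cell genes were among those named by the rule. Dcstamp and Siglec15, kept genes of the macrophage fusion list, were added after their values were seen. Over the 30 kept genes the effect was larger at 34 weeks for 15 and smaller for 15. The difference between the times ran from -0.60 to 1.32 on the log2 scale. For 17 of the 30 the HFD libraries lay above all CHOW libraries at both times, as they did for 0.351% of all genes tested, and nothing is read from this since the same contrasts chose the members. The 34 week calls were close to the threshold. No gene was kept with a pseudocount of 0.1 TPM, a filter at a mean of 5 TPM, quantile normalization, the replicate number as a block (the replicate block), the adipocyte score or without the 3 adipocyte-rich CHOW libraries, nor without any one of CHOW 34 week replicate 7 and HFD 34 week replicates 2 and 4, and 12 were kept without the 5 germ-cell-rich HFD libraries. With 1 library left out the count reached 84 (without CHOW 34 week replicate 4).

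Cpa3 (chromosome 3, 20215620 to 20242181), carboxypeptidase A of mast cell granules, was at 61.9, 86.8, 48.9, 59.5 and 63.6 TPM in the 5 CHOW libraries of 20 weeks and had a lowest, median and highest value of 75.1, 270.3 and 359 TPM on HFD. At 34 weeks the same 3 values were 10.0, 35.2 and 128 TPM on CHOW and 87.0, 239 and 362 TPM on HFD. Both diets overlapped in single libraries at both times, and the effect was 1.71 (SE 0.35, adjusted p = 0.00264) at 20 weeks and 2.70 (SE 0.51, adjusted p = 0.048) at 34 weeks. Mcpt4, a chymase of connective tissue mast cells, was at 129, 209, 149, 155 and 149 TPM on CHOW and 164, 574 and 748 TPM (lowest, median, highest) on HFD at 20 weeks. Values at 34 weeks were 28.5, 96.4 and 246 TPM on CHOW and 235, 556 and 769.6 TPM on HFD. The effect on Mcpt4 was 1.5 (SE 0.33, adjusted p = 0.00449) and 2.71 (SE 0.47, adjusted p = 0.0394), and the difference of 1.21 was not called (95% interval -0.10 to 2.52). The chymase Cma1 moved alike (effects ± SE of 1.36 ± 0.35 at 20 weeks and 2.68 ± 0.49 at 34 weeks), as did Ms4a2, the beta chain of the high-affinity IgE receptor (effects ± SE of 1.11 ± 0.31 at 20 weeks and 1.93 ± 0.33 at 34 weeks). Cd200r3, an activating receptor of mast cells and basophils, was at 2.24, 2.04, 1.87, 2.24 and 1.12 TPM on CHOW and 3.14, 7.21 and 14.2 TPM on HFD at 20 weeks, and the diets did not overlap at 34 weeks either (0, 0.464 and 2.55 TPM on CHOW, 2.59, 5.68 and 8.48 TPM on HFD). The tryptase Tpsb2 was called at 20 weeks (1.66, SE 0.29, adjusted p = 0.000626) and missed the threshold at 34 weeks (2.73, SE 0.54, adjusted p = 0.0578).

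Over the whole mast cell list, 10 of 12 tested genes rose at 20 weeks, 4 were called at 34 weeks and all 12 had a positive effect there. The median effect was 1.37 at 20 weeks and 2.22 at 34 weeks, against 0.072 and 0.099 over all genes tested, and no difference was called (median 0.89, positive for 11 of 12). The summed level of the list was 602 to 875 TPM on CHOW and 734 to 3156 TPM on HFD at 20 weeks, and 137 to 1230 TPM and 929 to 3061 TPM at 34 weeks. Without the 3 adipocyte-rich CHOW libraries the median effect at 34 weeks was 1.82 and no gene of the list was called there. With the adipocyte score as covariate none was called at either time (medians 1.16 and 1.58). Under sample quality weights 10 of the 12 were called at 34 weeks, as were 10 with the 8 week libraries in the fit.

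Other kept genes named by the rule follow. Cadm1 (chromosome 9, 47530173 to 47857637), an adhesion molecule that mast cells carry, was at 4.01, 13.8, 7.52, 3.97 and 5.24 TPM on CHOW and 41.3, 51.6 and 83.0 TPM on HFD at 20 weeks, and at 3.46, 7.94 and 46.9 TPM and 54.5, 60.9 and 85.9 TPM at 34 weeks. No CHOW library reached an HFD library at either time, and the effect was 2.92 (SE 0.32, adjusted p = 8.88e-06) and 2.51 (SE 0.47, adjusted p = 0.048). Zranb3, a DNA-annealing helicase, had the largest effect of the kept genes when each gene was ranked by the smaller of its 2 effects (effects ± SE of 3.06 ± 0.48 at 20 weeks and 2.78 ± 0.51 at 34 weeks), with CHOW values of 2.12, 18.4, 1.41, 0.975 and 1.41 TPM at 20 weeks. CHOW 20 week replicate 2 stood apart for it and still lay below the lowest HFD library, at 24 TPM. Myh15, a myosin heavy chain, was at 0, 2.46, 0.121, 0 and 0.102 TPM on CHOW and 7.91, 8.50 and 11.1 TPM on HFD at 20 weeks (effects ± SE of 2.88 ± 0.34 at 20 weeks and 2.37 ± 0.42 at 34 weeks). Plekha6, a pleckstrin homology domain protein, had effects of 2.18 ± 0.35 (SE) at 20 weeks and 1.94 ± 0.30 at 34 weeks, and Kcne3, a potassium channel subunit, of 1.93 ± 0.36 (SE) at 20 weeks and 2.09 ± 0.32 at 34 weeks. Both showed no overlap of the diets at either time. Cdk15, a cyclin-dependent kinase (effects ± SE of 1.95 ± 0.20 at 20 weeks and 1.53 ± 0.25 at 34 weeks), and Stap1, a signalling adaptor (effects ± SE of 1.44 ± 0.28 at 20 weeks and 1.97 ± 0.34 at 34 weeks), were likewise separated in every library at both times.

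Genes of macrophage fusion were split between kept and lost. Dcstamp, the membrane protein required for macrophages to fuse, was at 4.77, 6.72, 2.04, 1.67 and 4.33 TPM on CHOW and 6.78, 9.72 and 16.8 TPM on HFD at 20 weeks, and at 0.261, 1.74 and 5.62 TPM and 7.66, 10.3 and 13.3 TPM at 34 weeks. The diets did not overlap at either time, and the effect was 1.28 (SE 0.31, adjusted p = 0.00849) and 1.99 (SE 0.32, adjusted p = 0.0357). Siglec15, a sialic acid receptor of osteoclasts, was also kept (effects ± SE of 1.93 ± 0.31 at 20 weeks and 1.51 ± 0.26 at 34 weeks). Acp5, the tartrate-resistant acid phosphatase of osteoclasts, was lost and is described with the lost genes. Atp6v0d2, a proton pump subunit of osteoclasts and lipid-laden macrophages, rose at 20 weeks (4.25, SE 0.57, adjusted p = 7.25e-05) and had an effect of 1.21 (SE 0.47, adjusted p = 0.3) at 34 weeks, and its difference of -3.04 narrowly missed the threshold (adjusted p = 0.0592). Of the 11 tested genes of this list 7 rose and 1, Mmp9, fell at 20 weeks, 2 were kept and 1 lost, and 5 differences were positive and 6 negative. With the adipocyte score 1 rose at 20 weeks.

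**Figure D3:**
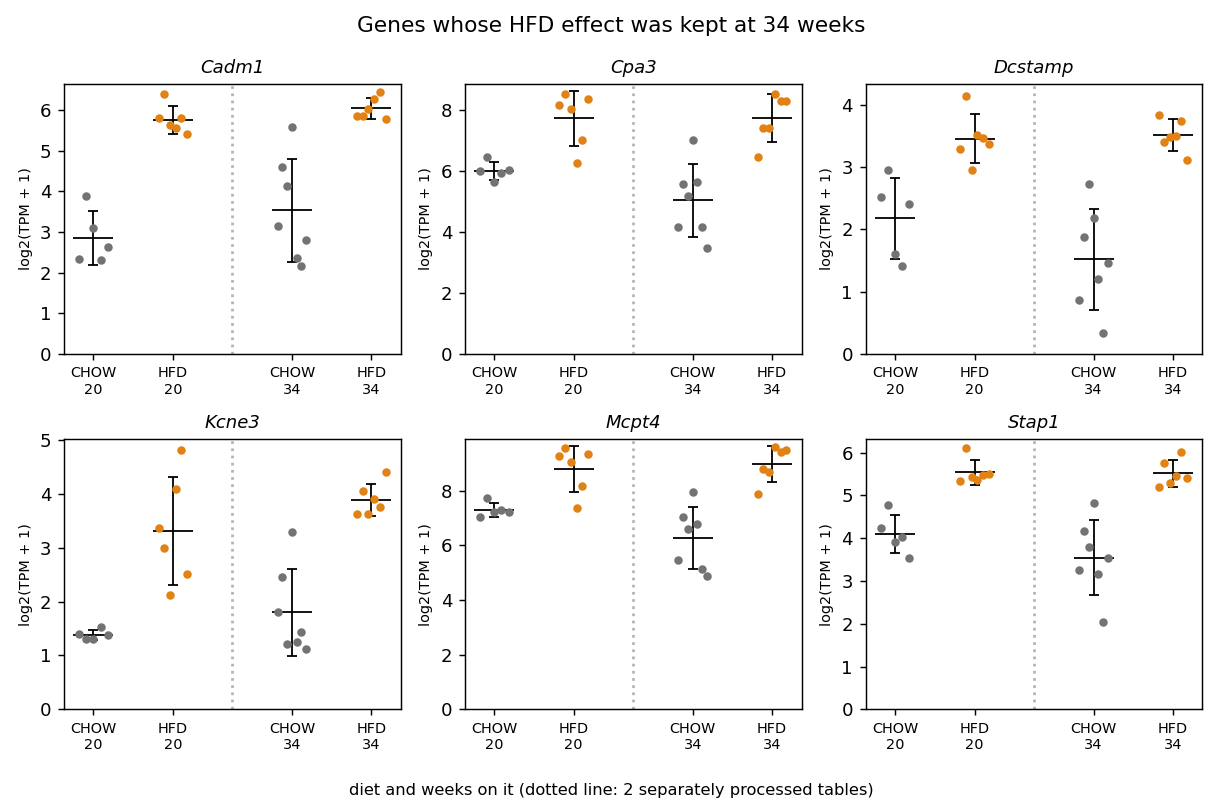
log2(TPM + 1) of 6 kept genes in each library, by diet and weeks on it, with the mean and SD of each group. The HFD libraries lie above all CHOW libraries at both times for Cadm1, Dcstamp, Kcne3 and Stap1, and the diets overlap for Cpa3 and Mcpt4. Levels are comparable only on one side of the dotted line.

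Among the lost genes 39 had risen and 32 had fallen at 20 weeks. Over all 71 lost genes the median size of the effect was 1.26 at 20 weeks and 0.20 at 34 weeks on the log2 scale, 49 had the opposite sign at 34 weeks, and 12 had an unadjusted p under 0.05 there. Without the 3 adipocyte-rich CHOW libraries 311 genes were lost, and without the 5 germ-cell-rich HFD libraries 4 were. Of the 83 genes with a called difference, 3 stayed called without the germ-cell-rich libraries, 17 under quantile normalization and 34 with the replicate block.

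Ctsd (chromosome 7, 142375911 to 142388038), the lysosomal protease cathepsin D, was at 1079, 1772, 628, 615 and 679 TPM on CHOW and had a lowest, median and highest value of 2964, 3962 and 5223 TPM on HFD at 20 weeks. Every HFD library lay above every CHOW library. At 34 weeks the values were 2191, 5782 and 7235 TPM on CHOW and 3797, 4273 and 8162 TPM on HFD, and the diets overlapped over most of their range. The effect was 2.16 (SE 0.30, adjusted p = 8.43e-05) and -0.018 (SE 0.28, adjusted p = 0.982), and the difference was -2.18 (SE 0.41, adjusted p = 0.0194). Syngr1 (chromosome 15, 80091334 to 80119501), a vesicle membrane protein, had the largest difference among the lost genes that had risen. It was at 4.43, 18.3, 6.62, 3.81 and 3.09 TPM on CHOW and 50.2, 60.5 and 113 TPM on HFD at 20 weeks. At 34 weeks it was at 18.7, 104 and 159 TPM on CHOW and 71.8, 95.8 and 154 TPM on HFD, and the difference was -3.07 (SE 0.58, adjusted p = 0.0194). The HFD libraries were clear of the CHOW libraries at 20 weeks alone. Acp5 was at 40.0, 127, 42.1, 31.3 and 39.5 TPM on CHOW and 172, 230.1 and 250.4 TPM on HFD at 20 weeks. After 34 weeks it was at 134, 144 and 1007 TPM and 126, 153 and 268 TPM, and the difference was -2.66 (SE 0.57, adjusted p = 0.0334). The highest Acp5 value of 34 weeks was in a CHOW library.

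Slc27a1, a fatty acid transport protein, was at 37.1, 41.3, 32.0, 28.4 and 37.0 TPM on CHOW and 83.7, 103 and 131 TPM on HFD at 20 weeks, and at 65.5, 104 and 226 TPM and 70.0, 99.6 and 113 TPM at 34 weeks. Its difference was -1.75 (SE 0.33, adjusted p = 0.0194). Dhrs3, which reduces retinaldehyde to retinol, differed by -1.83 (SE 0.30, adjusted p = 0.00997), and Sbk2, a little studied kinase, by -1.97 (SE 0.36, adjusted p = 0.0194). The effects on them at 34 weeks were -0.046 (SE 0.18, adjusted p = 0.925) and 0.16 (SE 0.23, adjusted p = 0.776). Further lost genes that had risen were picked after their values were seen. Nr1h3, the oxysterol receptor LXR alpha of macrophages, had effects of 1.01 ± 0.23 (SE) at 20 weeks and -0.26 ± 0.16 at 34 weeks and a difference of -1.27 (SE 0.25, adjusted p = 0.0197). Pla2g15, a lysosomal phospholipase, differed by -1.36 (SE 0.30, adjusted p = 0.0411), and Sort1, the sorting receptor sortilin, by -1.71 (SE 0.34, adjusted p = 0.0197). Lamtor1, an anchor of the Ragulator complex on lysosomes, differed by -1.09 (SE 0.25, adjusted p = 0.0411), and Thbs2, the matrix protein thrombospondin-2, by -1.45 (SE 0.27, adjusted p = 0.0194).

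Of the 39 lost genes that had risen, 32 had a promoter in the RefSeq table (GRCm38.p6, 250 bases before to 50 after a start site). The motif CACGTG, the core of the site bound by the MITF and TFE factors of lysosomal genes, was searched on both strands. It reads the same on each, and it was found in 6 of these 32 (18.8%), in 2 of 21 lost genes that had fallen (9.52%), in 0 of 22 kept genes and in 11.5% of the tested genes with a promoter (8.09% of all genes in the table). TGANTCA, the AP-1 motif, was in 4 of the 32 (12.5%), 2 of the 21 and 2 of the 22 (9.09%), against 6.44% of tested genes, and GAGGAAGT, a PU.1 type ETS motif, in 3 of the 32 (9.38%), 2 of the 21 and 0 of the 22, against 4.06%. These matches are descriptions of letters in a window. The promoters of 3 of these 6 are shown, picked by their known roles in lysosome and lipid handling. Atg7, Cyp4v3 and Gyg had also risen and hold CACGTG, as do Cgn and Kcnk5 among those that had fallen. Shared regulation was not tested. Capitals mark the motif and each is read 5′ to 3′ on the gene's strand. In Ctsd (chr7:142387778-142388077, minus strand) it lies 245 and 98 bases before the start site, in Lamtor1 (chr7:101905587-101905886, plus strand) 68 bases before, and in Slc27a1 (chr8:71570344-71570643, plus strand, 1 of its start sites) 202 bases before.
Ctsd: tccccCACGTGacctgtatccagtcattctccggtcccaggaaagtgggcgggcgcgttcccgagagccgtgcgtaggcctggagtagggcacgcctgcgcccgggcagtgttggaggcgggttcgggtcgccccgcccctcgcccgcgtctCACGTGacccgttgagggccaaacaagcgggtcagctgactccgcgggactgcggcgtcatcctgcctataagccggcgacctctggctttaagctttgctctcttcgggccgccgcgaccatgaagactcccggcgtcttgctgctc
Lamtor1: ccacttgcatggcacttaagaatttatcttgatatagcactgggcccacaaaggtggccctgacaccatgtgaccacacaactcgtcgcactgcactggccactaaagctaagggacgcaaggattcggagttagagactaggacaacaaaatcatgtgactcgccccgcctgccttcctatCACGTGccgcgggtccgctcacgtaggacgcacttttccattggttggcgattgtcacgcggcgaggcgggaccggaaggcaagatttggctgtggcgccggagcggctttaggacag
Slc27a1: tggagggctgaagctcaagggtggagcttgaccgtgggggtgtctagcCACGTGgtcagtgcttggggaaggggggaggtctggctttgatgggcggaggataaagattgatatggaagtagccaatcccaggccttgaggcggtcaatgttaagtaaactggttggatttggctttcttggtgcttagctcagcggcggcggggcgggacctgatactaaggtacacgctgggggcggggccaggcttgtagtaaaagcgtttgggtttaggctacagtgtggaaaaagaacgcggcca

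**Figure D4:**
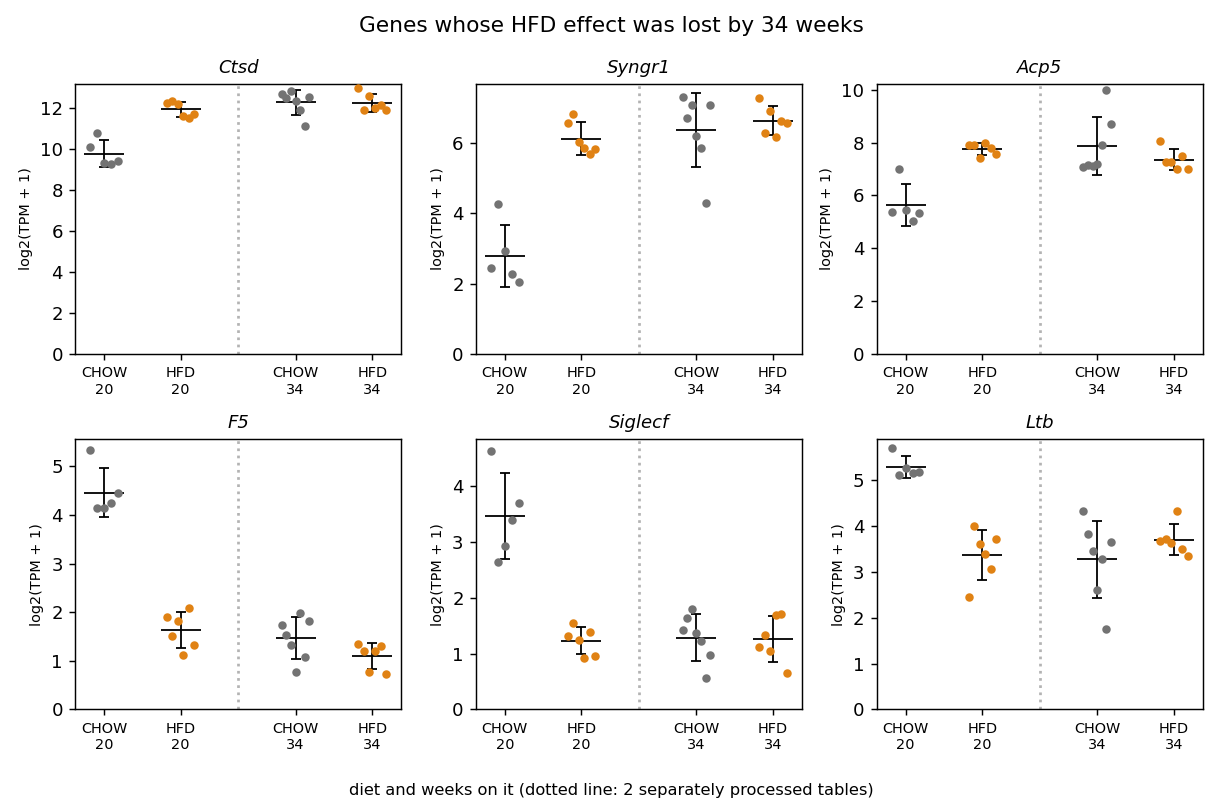
log2(TPM + 1) of 6 lost genes in each library, by diet and weeks on it, with the mean and SD of each group. CHOW and HFD are separated at 20 weeks for all 6 and overlap at 34 weeks for all 6, with Ctsd, Syngr1 and Acp5 higher and F5, Siglecf and Ltb lower on HFD at 20 weeks. Levels are comparable only on one side of the dotted line.

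The lipid-associated macrophage list (18 genes such as Trem2 and Gpnmb) had many called genes at 20 weeks and none at 34 weeks. At 20 weeks 16 of the 18 rose and none fell, against 9.77% and 5.59% of all genes. At 34 weeks none was called and 14 had a positive effect, and for 4 (Cd9, Itgax, Lpl and Mmp12) every HFD library lay above every CHOW library, against 0.739% of all genes. Itgax, the integrin CD11c, had effects of 2.94 ± 0.52 (SE) at 20 weeks and 2.42 ± 0.56 at 34 weeks, and Mmp12, macrophage elastase, of 4.07 ± 0.71 (SE) and 2.75 ± 0.66. The difference was negative for 18 of 18, while it was positive for 51.4% of all genes, and it was called for Ctsd alone. The median effect was 1.90 at 20 weeks and 0.61 at 34 weeks. The summed level of the list was 12738, 13461, 14371, 14585 and 18706 TPM in the CHOW libraries of 20 weeks and 23224 to 35366 TPM on HFD, with no overlap. The sums of 34 weeks were 22474 to 38601 TPM on CHOW (median 30037) and 25837 to 42521 TPM on HFD (median 27874), and the diets overlapped. The list includes Fabp4, Cd36, Lpl and Plin2, which adipocytes also express. CHOW 34 week replicates 5, 6 and 7, rich in adipocyte RNA, had sums of 24502, 22474 and 36309 TPM. Replicates 1 to 4 had 32356, 30037, 38601 and 25152 TPM, which overlap the HFD sums as well. Replicate 6 also had the lowest macrophage marker sum of the 24 libraries (5829 TPM). How much of the list sum came from adipocytes was not tested. Gpnmb, a glycoprotein of lipid-laden macrophages, was at 81.4, 575, 72.6, 49.4 and 79.5 TPM on CHOW and 1305, 1460.0 and 2394 TPM on HFD at 20 weeks, and at 128, 938 and 1786 TPM and 946, 1253 and 1840.0 TPM at 34 weeks. Its difference of -3.09 missed the threshold (adjusted p = 0.0572), as did that of Spp1, osteopontin (-3.19, SE 1.38, adjusted p = 0.234). The difference was called for 11 of the 18 without the adipocyte-rich CHOW libraries, all negative, with a median effect of 0.15 at 34 weeks, and for none without the germ-cell-rich HFD libraries. With the adipocyte score as covariate none rose at 20 weeks (median 0.95) and 8 differences were called.

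Genes of the lysosome moved in the same direction with smaller effects. Of 26 tested proton pump and hydrolase genes, 13 rose at 20 weeks, none was called at 34 weeks, and 22 differences were negative with none called. Their median effect was 0.49 at 20 weeks and 0.14 at 34 weeks. Gusb, beta-glucuronidase, had effects of 2.04 ± 0.30 (SE) at 20 weeks and 0.77 ± 0.25 at 34 weeks, with a difference of -1.27 (SE 0.39, adjusted p = 0.107). Hexa, a subunit of beta-hexosaminidase, had effects of 1.21 ± 0.20 (SE) at 20 weeks and 0.20 ± 0.23 at 34 weeks, and Atp6v0a1, a proton pump subunit, of 1.55 ± 0.24 (SE) at 20 weeks and 0.54 ± 0.21 at 34 weeks. Without the adipocyte-rich CHOW libraries 9 of the 26 differences were called, all negative, and the median effect at 34 weeks was -0.065. Without the germ-cell-rich HFD libraries none was called and 9 genes rose at 20 weeks, and with the adipocyte score 1 rose and 5 differences were called. Of 14 general macrophage markers 6 rose at 20 weeks and none was called at 34 weeks. Cd68, a lysosomal glycoprotein among them, had effects of 1.43 ± 0.26 (SE) at 20 weeks and 0.34 ± 0.32 at 34 weeks.

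The 32 lost genes that had fallen at 20 weeks included genes of eosinophils, regulatory T cells and other lymphoid cells. F5 (chromosome 1, 164151838 to 164220277), coagulation factor V, was at 39.2, 16.5, 16.6, 17.9 and 20.7 TPM on CHOW and 1.16, 2.20 and 3.23 TPM on HFD at 20 weeks. At 34 weeks it was at 0.702, 1.91 and 2.95 TPM on CHOW and 0.661, 1.30 and 1.53 TPM on HFD. The diets were well apart at 20 weeks and overlapped at 34 weeks, and the difference was 2.46 (SE 0.33, adjusted p = 0.00153). Rab44, a large Rab GTPase of mast cells and granulocytes, was at 35.9, 13.1, 15, 16.5 and 22.1 TPM on CHOW and 1.77, 4.93 and 5.99 TPM on HFD at 20 weeks. After 34 weeks it was at 0.968, 1.62 and 4.23 TPM and 1.79, 5.31 and 8.79 TPM. Its effect changed sign, from -1.92 (SE 0.36, adjusted p = 0.00132) to 0.91 (SE 0.31, adjusted p = 0.249), and its difference of 2.83 (SE 0.44, adjusted p = 0.00663) had the lowest adjusted p of the named genes after that of F5. Ltb, lymphotoxin beta of lymphocytes, was at 51.1, 33.7, 37.4, 35.0 and 35.4 TPM on CHOW and 4.44, 10.4 and 15.1 TPM on HFD at 20 weeks, and at 2.40, 9.92 and 19.3 TPM and 9.23, 11.6 and 19.3 TPM at 34 weeks (2.35, SE 0.45, adjusted p = 0.0194 for the difference). Alox15, the lipoxygenase that marks eosinophils and resident peritoneal macrophages, differed by 2.29 (SE 0.49, adjusted p = 0.0334). Trdv4, a variable segment of the T cell receptor delta chain, differed by 2.32 (SE 0.53, adjusted p = 0.0411), and Igkv4-57-1, an immunoglobulin kappa V segment whose reads may be shared with similar segments, by 5.18 (SE 1.21, adjusted p = 0.0486).

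Siglecf, a sialic acid receptor of eosinophils, was at 23.9, 5.25, 6.60, 9.57 and 11.9 TPM on CHOW and 0.903, 1.43 and 1.93 TPM on HFD at 20 weeks, with no overlap. Siglecf at 34 weeks was at 0.481, 1.58 and 2.49 TPM on CHOW and 0.565, 1.35 and 2.28 TPM on HFD, with full overlap, and the difference was 2.21 (SE 0.39, adjusted p = 0.0148). The 34 week CHOW medians of Siglecf, F5, Rab44 and Il2ra (below) were at or under 1.91 TPM. Such low levels leave log2(TPM + 1) little room for a fall of the size seen at 20 weeks, so their lost effects are limited by this floor. Ccr3, the eotaxin receptor, had effects of -1.35 ± 0.40 (SE) at 20 weeks and 0.38 ± 0.20 at 34 weeks and a difference of 1.73 (SE 0.34, adjusted p = 0.0199). In an eosinophil list made after the values were seen, 5 of 7 tested genes fell at 20 weeks (2 without the germ-cell-rich HFD libraries and 2 with the adipocyte score) and 3 were lost. Among regulatory T cell genes 6 of 9 fell at 20 weeks, none was called at 34 weeks, and 9 of 9 differences were positive, with a median effect of -1.22 at 20 weeks and 0.18 at 34 weeks (-0.019 without the adipocyte-rich CHOW libraries), and 1 fell with the adipocyte score. Il2ra, the alpha chain of the interleukin-2 receptor, was at 11.7, 4.85, 13.2, 14.3 and 18.5 TPM on CHOW and 1.97, 2.55 and 3.95 TPM on HFD at 20 weeks, and at 1.12, 1.91 and 2.51 TPM and 0.791, 1.67 and 1.93 TPM at 34 weeks. Its difference was 1.62 (SE 0.31, adjusted p = 0.0197). Tnfrsf18, the co-stimulatory receptor GITR, differed by 1.29 (SE 0.30, adjusted p = 0.0448). The checkpoint receptor Ctla4 (1.66, SE 0.53, adjusted p = 0.121) and the co-stimulatory receptor Tnfrsf4 (2.05, SE 0.51, adjusted p = 0.0592) missed the threshold. Icos, a co-stimulatory receptor of activated T cells, had an effect of -0.80 (SE 0.22, adjusted p = 0.0197) at 20 weeks and 0.89 (SE 0.25, adjusted p = 0.169) at 34 weeks, and its difference was 1.69 (SE 0.33, adjusted p = 0.0197).

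In the type 2 list 7 of 15 genes fell at 20 weeks (2 with the adipocyte score), and 3 differences were called, all positive (none without the germ-cell-rich HFD libraries). Gata3, the transcription factor of type 2 lymphocytes, was lost (1.49, SE 0.35, adjusted p = 0.0486). Il4, the type 2 cytokine interleukin-4, was at 20.4, 5.68, 12.5, 15.3 and 8.79 TPM on CHOW and 0.778, 4.54 and 10.6 TPM on HFD at 20 weeks, and at 0, 2.07 and 3.37 TPM and 2.48, 8.52 and 12.9 TPM at 34 weeks. Neither effect on Il4 was called (effects ± SE of -1.21 ± 0.46 at 20 weeks and 1.63 ± 0.39 at 34 weeks), yet the difference was (2.84, SE 0.61, adjusted p = 0.0334). Il13, its partner cytokine, was called at 34 weeks and not at 20 weeks (effects ± SE of 0.072 ± 0.46 at 20 weeks and 2.29 ± 0.38 at 34 weeks), with 0, 0.759 and 2.68 TPM on CHOW and 2.13, 9.19 and 15.9 TPM on HFD at 34 weeks. Its difference of 2.22 missed the threshold (adjusted p = 0.0613), so it was not gained by the definition. Cd209a, a lectin of dendritic cells, had a negative effect at both times (effects ± SE of -2.95 ± 0.24 at 20 weeks and -1.59 ± 0.49 at 34 weeks) that was called at 20 weeks alone.

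Mesothelial genes fell together at 20 weeks. All 12 tested genes of the list were called lower on HFD, none was called at 34 weeks, and the median effect was -1.92 and -0.21. All 12 differences were positive and none was called. Those 12 calls at 20 weeks became 4 without the germ-cell-rich HFD libraries (median -1.73) and 0 with the adipocyte score as covariate (median -1.22). Under sample quality weights all 12 differences were called, each of them positive. Krt19, a keratin of mesothelial cells, was at 54.5, 34.2, 92.6, 68.9 and 74.3 TPM on CHOW and 6.03, 10.5 and 20.7 TPM on HFD at 20 weeks, and at 9.76, 18.2 and 64.0 TPM and 7.07, 21.7 and 35.4 TPM at 34 weeks, and its difference was 2.24 (SE 0.60, adjusted p = 0.0703). The uroplakins Upk1b (1.99, SE 0.60, adjusted p = 0.102) and Upk3b (1.98, SE 0.66, adjusted p = 0.133) and mesothelin, Msln (1.55, SE 0.60, adjusted p = 0.192), had differences of a like size. The summed level of the list did not overlap at 20 weeks except for 1 pair of libraries, with 279 to 1024 TPM on CHOW and 93.9 to 290 TPM on HFD, and it overlapped at 34 weeks (146 to 693 TPM and 107 to 411 TPM). Erythroid genes moved with them. Of 7 tested, 5 fell at 20 weeks (3 without the germ-cell-rich HFD libraries or with the replicate block, 0 with the adipocyte score) and all 7 had a positive difference, and Hba-a1, a haemoglobin alpha chain, had effects of -1.77 ± 0.45 (SE) at 20 weeks and 0.16 ± 0.38 at 34 weeks. The part of erythroid RNA alone in the other results was not tested. A fit on TPM recomputed without erythroid, germ cell, seminal vesicle, epididymal and adipocyte genes called 121 differences and 107 lost genes.

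Resident perivascular macrophage genes had negative effects at both times, smaller at 34 weeks. Of 18, 12 fell at 20 weeks and none was called at 34 weeks, where 14 had a negative effect. The median was -1.54 and -0.46, and 17 differences were positive with none called. Cd209d, a C-type lectin, was at 169, 95.4, 99.6, 91.9 and 98.9 TPM on CHOW and 7.25, 17.1 and 25.1 TPM on HFD at 20 weeks, and at 8.02, 17.8 and 77.6 TPM and 6.34, 11.5 and 31.8 TPM at 34 weeks (effects ± SE of -2.79 ± 0.30 at 20 weeks and -1.09 ± 0.49 at 34 weeks). Cd209g (effects ± SE of -2.66 ± 0.25 at 20 weeks and -0.99 ± 0.52 at 34 weeks) and Lyve1, a hyaluronan receptor (effects ± SE of -2.12 ± 0.23 at 20 weeks and -0.61 ± 0.43 at 34 weeks), had the same order of effects. Of 15 type I interferon response genes 12 fell at 20 weeks, and all 15 had a negative effect at 34 weeks with none called (median -1.18 and -0.76). With the adipocyte score none of them fell (median -0.67 at 20 weeks). Ifit1, an antiviral RNA binding protein, had effects of -1.71 ± 0.43 (SE) at 20 weeks and -1.09 ± 0.38 at 34 weeks, Oasl2, an oligoadenylate synthetase-like protein, of -1.36 ± 0.20 (SE) at 20 weeks and -0.63 ± 0.35 at 34 weeks and Rsad2, the antiviral enzyme viperin, of -1.79 ± 0.38 (SE) at 20 weeks and -0.45 ± 0.41 at 34 weeks. Among neutrophil genes Mmp9, a gelatinase, fell at 20 weeks (-3.14, SE 0.36, adjusted p = 1.18e-05) and had an effect of -1.21 (SE 0.31, adjusted p = 0.14) at 34 weeks, and its difference of 1.93 missed the threshold (adjusted p = 0.0538). Retnlg, a resistin-like protein of neutrophils, had effects of -3.62 ± 0.59 (SE) at 20 weeks and -1.16 ± 0.79 at 34 weeks.

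Effects on collagen genes were mostly positive at 20 weeks and mostly negative at 34 weeks, where none passed the test. Of 16 collagens 2 rose at 20 weeks, 12 had a negative effect at 34 weeks with none called, and the difference was negative for 16 of 16 with none called (median effects 0.52 and -0.14). Col3a1, a fibrillar collagen, had effects of 0.87 ± 0.39 (SE) at 20 weeks and -0.69 ± 0.35 at 34 weeks and Col1a1 of 0.83 ± 0.31 (SE) at 20 weeks and -0.63 ± 0.43 at 34 weeks. Of 25 matrix remodelling genes 6 rose and 2 fell at 20 weeks, and the difference was called for 2, Thbs2 and Sparc. Sparc, a collagen binding matrix protein, was at 1235, 1118, 1192, 1188 and 625 TPM on CHOW and 1002, 1442 and 1993 TPM on HFD at 20 weeks. At 34 weeks it was at 1391, 1661 and 3562 TPM on CHOW and 692, 939 and 1389.8 TPM on HFD, the lowest CHOW value lying just above the highest HFD value. Neither effect was called (effects ± SE of 0.47 ± 0.24 at 20 weeks and -0.99 ± 0.24 at 34 weeks), and the difference was -1.46 (SE 0.33, adjusted p = 0.0411). Postn, periostin, rose at 20 weeks (0.84, SE 0.26, adjusted p = 0.035), and its effect at 34 weeks was -0.87 (SE 0.42, adjusted p = 0.384). Ccn2, a matrix-linked growth factor, had effects of 0.89 ± 0.43 (SE) at 20 weeks and -1.07 ± 0.63 at 34 weeks, neither called.

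Mitotic, respiratory chain and adipocyte genes follow. Of 18 mitotic genes 9 rose at 20 weeks and none was called at 34 weeks (median 0.97 and 0.53), and 17 differences were negative. Plk1, a mitotic kinase, had effects of 1.35 ± 0.31 (SE) at 20 weeks and 0.49 ± 0.37 at 34 weeks and Ccnb1, cyclin B1, of 1.20 ± 0.40 (SE) at 20 weeks and 0.41 ± 0.43 at 34 weeks. The median of this list at 34 weeks was 0.057 without the adipocyte-rich CHOW libraries, and 1 gene rose at 20 weeks without the germ-cell-rich HFD libraries, 2 with the replicate block and 0 with the adipocyte score. Of 24 nuclear genes of the respiratory chain 2 rose at 20 weeks, and all 24 differences were negative with none called (median effects 0.21 and -0.35), while the median at 34 weeks was -0.063 without those libraries. Cox5a, a subunit of cytochrome c oxidase, had a difference of -0.89 (SE 0.21, adjusted p = 0.0518) and Sdhb, a subunit of succinate dehydrogenase, of -0.87 (SE 0.28, adjusted p = 0.117). Adipocyte genes had a median effect of -0.85 at 20 weeks, where 8 of 15 fell and Lep rose (1.63, SE 0.48, adjusted p = 0.0257), and of -2.38 at 34 weeks with none called. The median difference, -1.47, became 0.195 without the 3 adipocyte-rich CHOW libraries, and Plin1, perilipin of the lipid droplet, went from -1.91 to 0.21.

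**Figure D5:**
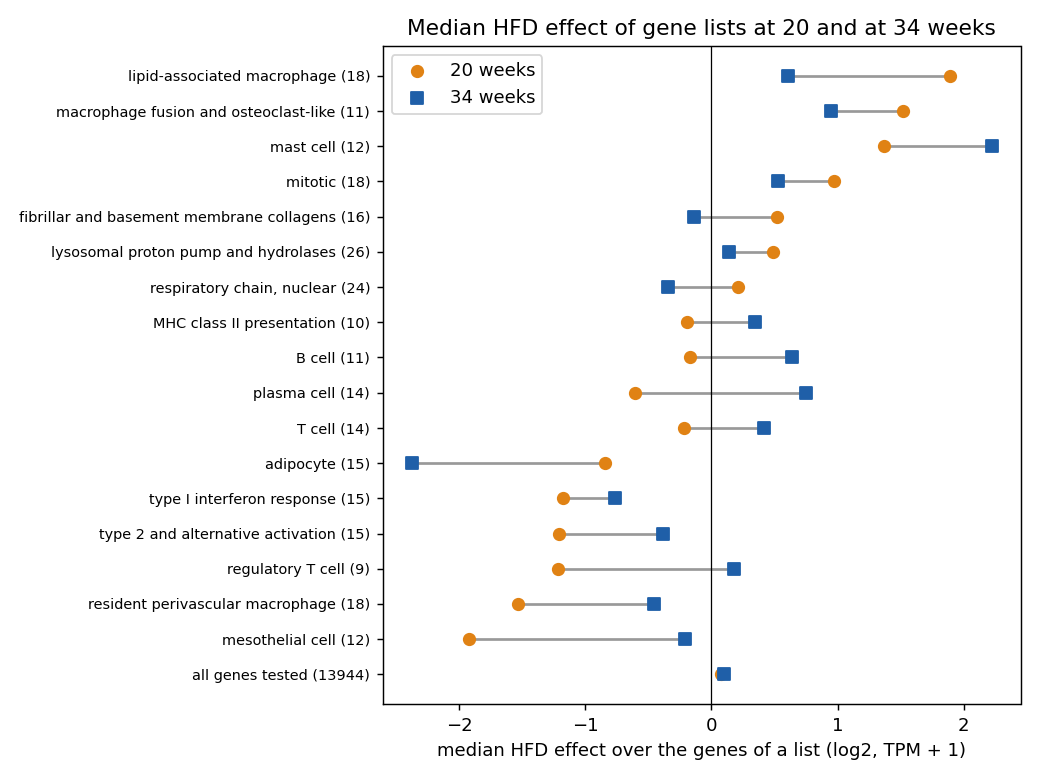
Median HFD effect on log2(TPM + 1) over the genes of each list at 20 weeks (circles) and 34 weeks (squares), with the number of genes tested. Lipid-associated macrophage, mesothelial and regulatory T cell lists lie nearer 0 at 34 weeks, the mast cell list lies farther from 0, and the median of all genes tested is near 0 at both times.

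Genes called at 34 weeks and not at 20 weeks were few. There were 4 of them (Cd79a, Il13, Igkv4-55 and Ighv1-19), and the difference was called for none. Cd79a, a signalling chain of the B cell receptor, was at 15.2, 21, 15.2, 30.7 and 25.7 TPM on CHOW and 9.23, 15.2 and 36.9 TPM on HFD at 20 weeks. By 34 weeks it was at 9.61, 11.9 and 16.2 TPM on CHOW and 18.7, 23.7 and 36.5 TPM on HFD with no overlap, and the effects were -0.27 ± 0.31 (SE) at 20 weeks and 0.89 ± 0.16 at 34 weeks. The immunoglobulin kappa V segment Igkv4-55 had effects of 0.75 ± 0.81 (SE) at 20 weeks and 3.70 ± 0.52 at 34 weeks, with 2.85, 12.2 and 19.9 TPM on CHOW and 44.4, 135 and 368 TPM on HFD at 34 weeks. All 11 tested B cell genes had a positive effect at 34 weeks, with a median of 0.64 against -0.17 at 20 weeks, and 10 differences were positive. All 10 MHC class II presentation genes had a positive difference, with a median effect of -0.19 at 20 weeks and 0.34 at 34 weeks and no call at either time. Plasma cell genes had medians of -0.61 and 0.75. Ighg2b, a heavy chain constant gene, fell at 20 weeks (-3.12, SE 0.89, adjusted p = 0.0213) and had an effect of 0.49 (SE 0.63, adjusted p = 0.74) at 34 weeks, and Jchain, which joins secreted antibody, had effects of -1.14 ± 0.54 (SE) at 20 weeks and 1.05 ± 0.50 at 34 weeks. Of 14 T cell genes 3 fell at 20 weeks, and 13 differences were positive. Trac, the constant region of the T cell receptor alpha chain, had effects of -0.73 ± 0.23 (SE) at 20 weeks and 0.69 ± 0.49 at 34 weeks.

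The difference was called for 12 genes that were neither lost nor gained, 9 of them with a positive difference. Those named by the rule include RNA of the male reproductive tract beside the fat pad. Crisp1, a secretory protein of the epididymis, was at 52.3, 39.2, 78.8, 54.4 and 18.7 TPM on CHOW and 0, 18.6 and 24.6 TPM on HFD at 20 weeks, and at 0, 1.21 and 3.71 TPM and 0.886, 15.7 and 40.7 TPM at 34 weeks (4.56, SE 1.00, adjusted p = 0.0395 for the difference). Spink8, an epididymal protease inhibitor, differed by 5.15 (SE 1.17, adjusted p = 0.0411), and Svs5, a seminal vesicle secretory protein, by 2.85 (SE 0.61, adjusted p = 0.0334). The summed epididymal list was at 121 to 402 TPM on CHOW and 21.5 to 141 TPM on HFD at 20 weeks, and at 47.6 to 365 TPM and 76.7 to 279 TPM at 34 weeks. Prm1, a protamine of sperm, was at 0, 307 and 3096 TPM (lowest, median, highest) on HFD at 20 weeks and 3.25, 35.2 and 1340.2 TPM on HFD at 34 weeks, and its effects were 3.55 ± 1.75 (SE) at 20 weeks and 4.43 ± 1.32 at 34 weeks. Igkj5, an immunoglobulin kappa J segment, differed by 4.61 (SE 1.06, adjusted p = 0.0427).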

How the data were processed

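The SVF of perigonadal fat was pelleted after collagenase digestion, treated with an erythrocyte lysing buffer and sequenced as stranded mRNA libraries (TruSeq, NextSeq). FastQC and MultiQC served the authors for read quality and Trimmomatic for trimming, and Salmon gave levels of gencode M10 transcripts, coding and long non-coding, which were summed per gene. The sources used here give no software versions. The authors deposited TPM per gene, with the 21 libraries of 8 and 20 weeks in one table and the 13 of 34 weeks in another. TPM sums to 1000000 in each library and keeps no read depth, so depth is unknown and no counting interval is given. The authors ran DESeq2 on counts, which are not used here.

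IDs were matched to symbols with gencode M21 (GRCm38), and 31791 of 32098 had one. A gene was tested if it reached 1 TPM in 4 or more libraries of the first table and in 6 or more of the second, and tests were run on log2(TPM + 1), which understates the change of low genes. Tests were two-sided in limma 3.58.1 (R 4.3.3), with a mean-variance trend and 1 mean per group. The effect at 20 weeks was fitted on all 21 libraries of its table, the effect at 34 weeks on 13, and the difference on the 24 libraries of 20 and 34 weeks. The labels give replicate numbers and not animals, so p-values measure the spread between libraries, which may be technical. No 2 libraries held the same values. The fit was tested on simulated data.

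The members and lists were chosen with earlier results of these data known. Named genes are up to 10 kept genes (by the smaller of their effects), 6 lost genes that had risen and 6 that had fallen, all genes called at 34 weeks only up to 6, 4 genes with a called difference in neither class (by size of the difference), and up to 3 genes per list, at a mean of 5 TPM in some group, and in the first 4 sets with no clone names and with immunoglobulin V segments counted as 1. Ccr3, Nr1h3, Pla2g15, Lamtor1, Sort1, Thbs2, Dcstamp, Siglec15, Gata3, Icos, Tnfrsf18, Sparc, Ms4a2 and Msln were added after their values were seen. The alternatives varied the pseudocount, filter, scaling, weights, spread, libraries and covariates.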

Additional observations from a re-analysis of the deposited data

Results flagged for a closer look

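Single libraries stood apart from the rest of their group for 35 of 348 sets of a named gene and a group (10.1%), where the largest gap at one end of log2(TPM + 1) passed Dixon's 95% critical value. Chance flags about 1 in 20 groups. CHOW 20 week replicate 2 did so for 8 genes. It was high for Zranb3 (18.4 TPM), Myh15 (2.46 TPM), Acp5 (127 TPM), Gpnmb (575 TPM), Atp6v0d2 (72.3 TPM) and Ccn2 (21.7 TPM) and low for Dpp4 (16.3 TPM) and Oasl2 (54.0 TPM). CHOW 20 week replicate 1 was high for F5 (39.2 TPM), Ltb (51.1 TPM), Alox15 (49.3 TPM) and Cd209d (169 TPM). CHOW 20 week replicate 5 was high for Trac (29.7 TPM) and low for Cd200r3 (1.12 TPM), Lep (0.204 TPM), Col3a1 (223 TPM), Col1a1 (91.6 TPM) and Sparc (625 TPM). CHOW 34 week replicate 6, whose adipocyte sum was the highest, was low for Cd68 (294 TPM), Hexa (258 TPM), Ccnb1 (0.940 TPM) and Trdv4 (0 TPM) and high for Sdhb (406 TPM). Replicate 4 of the same group was low for Cd209a (3.88 TPM). Among HFD libraries of 20 weeks, replicate 2 was high for Stap1 (68.1 TPM) and at 0 TPM for Spink8 and Crisp1, replicate 3 was high for Mmp9 (9.19 TPM) and Hba-a1 (4209 TPM), and replicate 4 was low for Rab44 (1.77 TPM) and high for Gata3 (4.41 TPM). Among HFD libraries of 34 weeks, replicate 1 was low for Pi16 (53.0 TPM) and Dcn (2107 TPM), replicate 2 was high for Cd209a (23.1 TPM) and replicate 4 was high for Ltb (19.3 TPM).

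The HFD effect differed between 20 and 34 weeks by the test of the difference for 29 named genes. Values are the effect at 34 weeks minus that at 20 weeks on the log2 scale. The difference was negative for Syngr1 (-3.07), Acp5 (-2.66), Ctsd (-2.18), Sbk2 (-1.97), Dhrs3 (-1.83), Slc27a1 (-1.75), Sort1 (-1.71), Sparc (-1.46), Thbs2 (-1.45), Pla2g15 (-1.36), Nr1h3 (-1.27) and Lamtor1 (-1.09). It was positive for Igkv4-57-1 (5.18), Spink8 (5.15), Igkj5 (4.61), Crisp1 (4.56), Svs5 (2.85), Il4 (2.84), Rab44 (2.83), F5 (2.46), Ltb (2.35), Trdv4 (2.32), Alox15 (2.29), Siglecf (2.21), Ccr3 (1.73), Icos (1.69), Il2ra (1.62), Gata3 (1.49) and Tnfrsf18 (1.29).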

How the results depend on the processing

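The main count of called differences was 83, of genes called at 20 weeks 2142, at 34 weeks 34, kept 30, lost 71 and gained 0. Counts within 1.5 times of these are not repeated. Called differences numbered 172 under median-ratio scaling, 18 under quantile normalization, 2454 with sample quality weights, 362 without the 3 adipocyte-rich CHOW libraries, 4 without the 5 germ-cell-rich HFD libraries and 241 with the adipocyte score as covariate. Genes called at 20 weeks numbered 3269, 990 and 127 under median-ratio scaling, without the germ-cell-rich libraries and with the covariate, and 4979 with weights. At 34 weeks 0 genes were called with a pseudocount of 0.1 TPM, a filter at a mean of 5 TPM, the adipocyte-rich libraries left out, the covariate or the replicate block, 1 under quantile normalization, 7 with no filter, 8 with a filter passed in either table, 294 with weights and 309 with the 8 week libraries in the fit. Kept genes numbered 0 in the same 5 settings and under quantile normalization, 4 with no filter, 6 with the filter in either table, 12 without the germ-cell-rich libraries, 191 with weights and 139 with the 8 week libraries. Lost genes numbered 156 under median-ratio scaling, 18 under quantile normalization, 107 on recomputed TPM, 2068 with weights, 311 without the adipocyte-rich and 4 without the germ-cell-rich libraries, and 32 with the covariate. Gained genes numbered 2, 58 and 4 under median-ratio scaling, weights and the 8 week libraries. The causes were not tested, and settings that leave out libraries also test fewer samples.

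Leaving out 1 library moved called differences between 28 (CHOW 20 week replicate 4) and 383 (CHOW 20 week replicate 2), with 325 without HFD 34 week replicate 1, 303 without CHOW 34 week replicate 6 and 200 without CHOW 34 week replicate 4. Lost genes ranged from 27 to 330, genes called at 20 weeks from 1302 to 2449, at 34 weeks from 0 (CHOW replicate 7, HFD replicates 2 and 4) to 109 (without CHOW replicate 4), kept from 0 to 84 and gained from 0 to 7. Of the genes named, the direction reversed for Plin1 (0.212 without the adipocyte-rich libraries) and Prm1 (-0.627 under the replicate block), neither of them called. With single libraries left out Prm1 ranged from -0.382 (without HFD 20 week replicate 6) to 1.937 (without HFD 20 week replicate 5), and was -0.019 without HFD 34 week replicate 2. Of the 29 named genes with a called difference, F5 and Rab44 stayed called in all 15 alternatives, and 13 stayed called without each of the 24 libraries. Another 13 lost the call in over 10 of those 24, which were Tnfrsf18 (19), Gata3 (18), Spink8 (17), Lamtor1 (16), Trdv4, Igkj5 and Igkv4-57-1 (15 each), Pla2g15 (14), Alox15 (13), Crisp1 (12), and Acp5, Il4 and Sparc (11 each). Gata3 lost it in 10 of 15 alternatives. The 14 named kept genes lost their 34 week call in 7 to 9 alternatives and without 8 to 11 libraries. Quantile normalization moved the median effect of all genes from 0.072 to -0.064 at 20 weeks and from 0.099 to -0.037 at 34 weeks, and median-ratio scaling that of 34 weeks to -0.0021. Same-numbered CHOW and HFD libraries deviated together in 4 of 11 pairs (r over 0.1, range -0.154 to 0.219). In 5 of the 11 the HFD library most like a CHOW library bore its number. These were replicate 2 at 20 weeks and replicates 1, 2, 3 and 6 at 34 weeks. The numbers were not taken to pair the samples, though these values do not exclude a pairing. With the replicate block 76 differences, 2074 genes at 20 weeks and 70 lost genes were called, and 34 of the 83 differences were shared. Depth is unknown from TPM, so low genes cannot be weighted by it.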

Other observations

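Other lists held few calls. Of 12 monocyte genes 5 fell at 20 weeks, with a median effect of -0.87 at 20 weeks and -0.45 at 34 weeks on the log2 scale, and of 11 dendritic cell genes 3 fell (median -0.62 and -0.11). Of 15 adipose progenitor genes 1 rose and 5 fell at 20 weeks, and 11 differences were positive. Among them Pi16, a marker of early progenitors, had effects of -0.92 ± 0.24 (SE) at 20 weeks and 0.51 ± 0.52 at 34 weeks, Dpp4, a surface peptidase of the same cells, of -1.37 ± 0.26 (SE) at 20 weeks and -0.32 ± 0.31 at 34 weeks, and Dcn, the proteoglycan decorin, of -0.61 ± 0.19 (SE) at 20 weeks and 0.55 ± 0.28 at 34 weeks. Of 14 cytotoxic T and NK cell genes 1 rose and 1 fell at 20 weeks, and 12 differences were positive. Of 18 cholesterol synthesis genes 2 rose at 20 weeks and 16 differences were negative (median effects 0.25 and -0.13), and of 16 inflammatory cytokine genes 2 fell and 15 differences were positive (median effects -0.006 and 0.39). No difference was called in any of these lists. Of 13 endothelial genes 1 fell at 20 weeks, and of 11 pericyte and smooth muscle genes none was called at either time. Heat shock (14 genes) and cytosolic ribosomal protein genes (20) had no call at either time, and of 16 immediate early genes 2 rose at 20 weeks. Of 4 epithelial junction genes, a list made after the values were seen, 2 fell at 20 weeks, 3 differences were called, all positive, and 2 genes were lost.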
